A study of Mus musculus with 3 samples.

Results

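Granzymes, perforin and Fas ligand were followed as 8 genes, Gzma, Gzmb, Gzmc, Gzmk, Prf1, Nkg7, Fasl and Fas, taken by name from the 32285 gene rows of each library. The libraries held immune cells (CD45+) sorted from the sciatic nerves of neuropathic NOD.AireGW/+ mice after perfusion of the heart. The mice have 1 altered copy of Aire, through which the thymus displays tissue antigens to developing T cells, on the NOD background, which is prone to autoimmunity, and the study used females. There were 3 libraries in 1 group, with 1 mouse each in libraries 1 and 2 and 2 pooled mice, not told apart here, in library 3. No control mice were analysed here, so classes of cells were compared within libraries and nothing was tested about disease.

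Cytotoxic lymphocytes kill through granules and through death receptors. Perforin, encoded by Prf1, forms pores in the membrane of the target cell through which granzymes, a family of serine proteases, reach the cytosol, and Nkg7 is a granule membrane protein that takes part in granule release. Fas ligand, encoded by Fasl, binds the receptor Fas on the target and starts the caspase cascade without granules. Granzyme B cleaves caspases and other death substrates after aspartate, granzymes A and K cleave after basic residues, and Gzmc belongs to a cluster of granzymes found in rodents.

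In the mouse assembly GRCm38 (mm10), Gzmb lay on chromosome 14 at positions 56258838 to 56262260, minus strand, beside Gzmc at 56231441 to 56234656. Gzma (113093825 to 113100981) and Gzmk (113171608 to 113225908) were neighbours on the minus strand of chromosome 13. Prf1 lay on chromosome 10 at 61297833 to 61304680, plus strand, and Nkg7 on chromosome 7 at 43437073 to 43438249, plus strand. Fasl lay on chromosome 1 at 161780689 to 161788495, minus strand, and Fas on chromosome 19 at 34290666 to 34327772, plus strand. All 8 are protein-coding and their identifiers in the annotation matched those of the libraries. Of the 31-base words in the Gzmc transcripts, 2.20% were also in Gzmb, 8.22% in Gzme, 7.29% in Gzmg, 5.79% in Gzmd and 3.47% in Gzmf. Some Gzmc reads could therefore belong to a relative. The words were counted over whole transcripts, so their share does not give the share of reads. Gzma and Gzmk shared no such word with any other granzyme examined, and Gzmb shared 1.35% of its words with Gzmc.

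The start regions of Gzma, Gzmb, Gzmk and Prf1 are shown first because these genes are compared most closely in the results, as RefSeq gives them for GRCm38.p6, from 250 bases before to 50 after the start site, 5′ to 3′. Capitals mark exact matches to a T-box core (AGGTGT or its reverse complement ACACCT; T-bet and Eomes are T-box factors) and to a RUNX core (TGTGGT or ACCACA).
Gzma (chr13:113100932-113101231, minus strand): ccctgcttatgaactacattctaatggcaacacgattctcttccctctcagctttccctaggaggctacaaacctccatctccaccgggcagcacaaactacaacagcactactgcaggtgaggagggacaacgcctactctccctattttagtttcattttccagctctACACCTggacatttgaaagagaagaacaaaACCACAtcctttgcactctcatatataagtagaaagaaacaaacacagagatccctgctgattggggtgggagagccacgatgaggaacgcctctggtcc
Gzmb (chr14:56262285-56262584, minus strand): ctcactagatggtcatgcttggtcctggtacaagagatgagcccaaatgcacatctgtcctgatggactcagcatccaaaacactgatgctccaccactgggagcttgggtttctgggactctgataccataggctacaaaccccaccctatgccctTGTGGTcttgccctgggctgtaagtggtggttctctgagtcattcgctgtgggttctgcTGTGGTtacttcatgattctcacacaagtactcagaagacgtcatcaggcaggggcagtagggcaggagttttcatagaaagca
Gzmk (chr13:113180916-113181215, minus strand): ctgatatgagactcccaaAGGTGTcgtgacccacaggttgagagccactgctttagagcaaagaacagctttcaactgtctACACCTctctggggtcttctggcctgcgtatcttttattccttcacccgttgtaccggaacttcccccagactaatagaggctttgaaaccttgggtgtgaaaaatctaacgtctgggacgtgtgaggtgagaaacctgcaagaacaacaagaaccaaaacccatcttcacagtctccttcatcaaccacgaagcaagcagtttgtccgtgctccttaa
Prf1 (chr10:61297586-61297885, plus strand): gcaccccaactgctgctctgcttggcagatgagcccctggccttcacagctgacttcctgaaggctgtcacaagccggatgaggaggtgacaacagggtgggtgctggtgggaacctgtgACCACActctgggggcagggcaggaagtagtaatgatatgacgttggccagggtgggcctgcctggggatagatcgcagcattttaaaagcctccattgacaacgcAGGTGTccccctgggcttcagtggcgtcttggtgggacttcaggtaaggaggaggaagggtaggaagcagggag

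Both Gzma and Prf1 held 1 match of each motif, Gzmb held 2 RUNX matches and no T-box match, and Gzmk held 2 T-box matches and no RUNX match. Of the other members, Gzmc and Nkg7 held both motifs, and Fasl and Fas held neither. Over all 32851 promoters of the same length, 13.7% held the T-box letters and 16.8% the RUNX letters on either strand. A match of letters is a description of the window and not evidence of binding. The gene spans given above come from another annotation, GENCODE. The Gzmk window lies inside its span and the Gzmb window wholly outside its span, so the start sites of the sources differ there.

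Cells were put in classes by marker genes. The libraries held 22983991, 55120460 and 3399733 UMIs (unique molecular identifiers, each counting 1 captured transcript). Library 1 kept 3848 of 3926 cells, library 2 kept 8256 of 8311 and library 3 kept all 1533, and the median cell had 3986, 4659 and 1726 UMIs. CD8 T cells (854, 928 and 243 in libraries 1, 2 and 3) carried Cd8a or Cd8b1 and no Cd4 or Foxp3, and conventional CD4 T cells (632, 846 and 185) carried Cd4 and no Foxp3 or CD8 gene. Foxp3-positive T cells numbered 407, 553 and 112. Ly49-positive T cells (291, 297 and 95) carried CD3 with at least 2 UMIs of the Klra genes, which encode receptors best known from natural killer cells. NK cells (46, 72 and 13) carried NK receptor genes without CD3, and gamma delta T cells (35, 119 and 9) carried Trdc and a gamma constant gene. Gamma delta and then Ly49-positive T cells were set apart first, and the CD8, CD4 and Foxp3-positive classes were formed from the T cells left. Cells in the Ly49 gate are therefore not in the CD8 class, even where they carried Cd8a or Cd8b1. Sums of fewer than 10 cells were left out of tests, which removed gamma delta cells of library 3.

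The classes were then checked against further marker genes. The summed level of Eomes, Tyrobp, Txk and Klrk1 was 2648 to 3364 counts per 1000000 UMIs (CPM) in NK cells and 321 to 668 in CD8 T cells. The sum was as high in macrophages of libraries 1 and 2 (2596 to 3181), nearly all of it Tyrobp (2511 and 3163), whereas Eomes was at 168 to 391 CPM in NK cells and at most 0.34 in those macrophages. The 6 T cell receptor and CD3 genes summed to 148 to 417 CPM in NK cells, where the gate itself sets 3 of them, the CD3 genes, to 0. In Ly49-positive T cells the first sum was 2129 to 2550, with Cd8a plus Cd8b1 at 114 to 594 CPM and Cd4 at 2.42 to 22.4. The gamma delta cells carried the Klra genes, at 936 to 1973 CPM. Libraries 1 and 2 shared 36 cell barcodes, 1 and 3 shared 7, and 2 and 3 shared 14. T cells that met no gate made up 18.5%, 16.1% and 38.2% of kept cells.

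**Figure D1:**
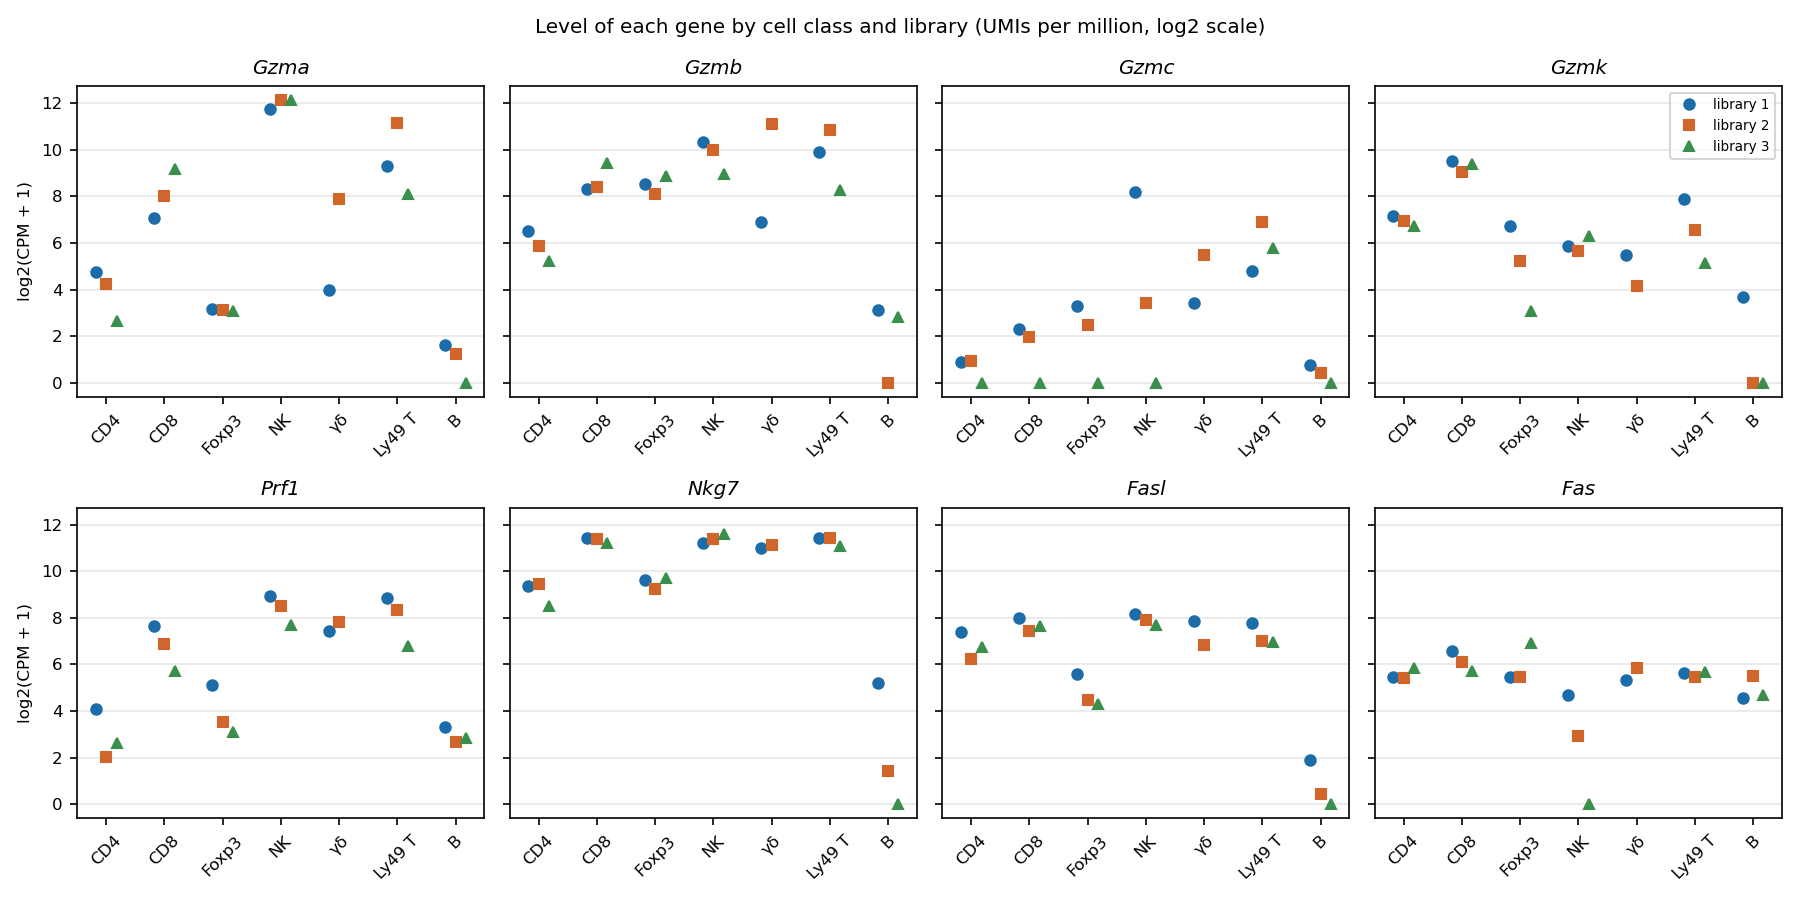
Level of each gene in 7 classes, as log2(CPM + 1), with 1 point per library and sums of fewer than 10 cells left out. Gzma points are highest in NK cells, between 3486 and 4485 CPM, Gzmk points are highest in CD8 cells, between 522 and 727 CPM, and Nkg7 points lie between 2066 and 3077 CPM in CD8, NK, gamma delta and Ly49-positive cells and at or below 35.9 in B cells.

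CD8 T cells held more of nearly every member than conventional CD4 T cells did, and perforin and granzyme A differed most. With edgeR's quasi-likelihood test on summed UMIs, the library as a term, 7 of 8 members were higher in CD8 cells at an adjusted p under 0.05 and 0 were lower, where 12.7% of the 8501 genes tested were called in either direction. Levels below are CPM per library, and log2 fold changes come from the fit with its own scaling. Each p-value weighs a difference within libraries against the spread left after the library term. CD8, conventional CD4, Foxp3-positive, NK, gamma delta and Ly49-positive sums were fitted together and share that spread. Subsets of CD8 and CD4 cells were each fitted on their own. The differences come from 3 libraries, or 2 for gamma delta and Il21-positive cells.

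Prf1, the perforin gene, was at 201, 116 and 51.7 CPM in CD8 cells of libraries 1, 2 and 3 and at 16.1, 3.10 and 5.2 in conventional CD4 cells. The ranges did not overlap, and B cells, a class that should lack perforin RNA, had 8.96, 5.42 and 6.17 CPM. Only library 1 had more Prf1 in CD4 than in B cells, and the exact 95% counting intervals of those 2 sums overlapped. The CD4 values are therefore read as near background, although overlap does not show equal levels and the difference was not tested. The log2 fold change was 4.20 ± 0.31 (SE, adjusted p = 3.37e-09). Here and below, the SE of an edgeR log2 fold change is its size divided by the square root of the test's F. It thus restates the p-value and is not a separate estimate of spread.

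Gzmk varied little over libraries. It stood at 727, 522 and 667 CPM in CD8 cells and at 141, 121 and 107 in conventional CD4 cells (log2 fold change 2.50 ± 0.29, adjusted p = 1.65e-06). Every CD8 value was above every CD4 value, and the CD4 values were above the 0 to 11.7 CPM of B cells.

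Gzma spread more: it was at 133, 260 and 585 CPM in CD8 cells and 26.0, 18 and 5.2 in conventional CD4 cells (log2 fold change 4.04 ± 0.65, adjusted p = 0.00013). Library 3 was highest among CD8 sums and lowest among CD4 sums, where its level came from 2 UMIs. Gzmb was at 317, 340 and 688 CPM in CD8 cells and 90.5, 56.7 and 36.4 in conventional CD4 cells, a log2 fold change of 2.88 ± 0.66 (adjusted p = 0.0042). The Gzmb call was lost without library 3, where the log2 fold change was 2.22 and the adjusted p 0.0525. Gzmc had 17, 12 and 0 UMIs in all CD8 cells and 2, 3 and 0 in CD4 cells, too few for a call (adjusted p = 0.54).

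Nkg7 was at 2782, 2680 and 2368 CPM in CD8 cells and 661, 695 and 361 in conventional CD4 cells (log2 fold change 2.29 ± 0.16, adjusted p = 1.67e-09). Fasl differed less, with 258, 171 and 199 CPM against 165, 74.0 and 107 (log2 fold change 1.02 ± 0.15, adjusted p = 4.31e-05). Each library had more Fasl in its CD8 cells, and the lowest CD8 value lay just above the highest CD4 value. For the receptor, Fas, the log2 fold change was 0.86 ± 0.22 (adjusted p = 0.011), with 94.2, 67.1 and 51.7 CPM in CD8 cells and 42.6, 41.5 and 57.2 in CD4 cells. B cells had 22.8, 44.7 and 24.7 CPM of Fas. Library 3 went the other way, and without library 1 the Fas call was lost (log2 fold change 0.58, adjusted p = 0.16), as it was with DESeq2.

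Other genes of the same machinery were counted from lists. Of 14 other granule genes tested, 5 were higher and 2 lower in CD8 cells, with a median log2 fold change of 0.30 beside 0.02 over all genes. Ctsw, a cathepsin of cytotoxic granules, had a log2 fold change of 1.39 ± 0.13, and Serpinb9, which inhibits granzyme B, 1.23 ± 0.25. Of 10 killer receptors and effectors, 8 were higher and 0 lower, led by the inhibitory receptor gene Klrc1 at 4.79 ± 0.25 and the chemokine gene Ccl5 at 3.39 ± 0.21. Of 12 regulators, 4 were higher and 3 lower, with the T-box factor gene Eomes at 3.97 ± 0.31 and Hopx at 1.97 ± 0.16. Of 13 death receptor genes, 3 were higher and 2 lower, with a median of -0.01. Tnfsf10, the gene of the death ligand TRAIL, was higher at 0.87 ± 0.20.

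Detection per cell was compared as well. Each cell was thinned to 1000 UMIs, which left out shallower cells, and the share of cells with at least 1 UMI of a gene was averaged over the 3 libraries (mean ± SD). Gzmk was found in 39.8% ± 6.47 of CD8 cells, 9.26% ± 1.80 of conventional CD4 cells and 0.917% ± 1.59 of B cells. Nkg7 was found in 81.4% ± 4.56 of CD8, 27.6% ± 5.41 of CD4 and 2.24% ± 3.63 of B cells. For Fasl the shares were 21% ± 4.72 of CD8, 10.7% ± 4.39 of CD4 and 0.153% ± 0.265 of B cells. Prf1 was found in 10.7% ± 7.34 of CD8 cells, with library 1 at 18.8% and library 3 at 4.42%, against 0.533% ± 0.558 of CD4 cells and 0.879% ± 0.569 of B cells. The median B cell had 3967, 3058 and 1726 UMIs in libraries 1, 2 and 3 and the median CD8 cell 4048, 3300 and 2096.

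A minority of CD8 cells carried most granzyme A and B. The top 10% of CD8 cells by Gzmb UMIs, without thinning, held 75.0%, 76.9% and 75.6% of all Gzmb UMIs of the class. For Gzma that share was 100%, 98.7% and 93.7%. Only 69, 107 and 43 CD8 cells had a Gzma UMI, where the top 10% was 85, 93 and 24 cells, so 100% was fixed in library 1. Gzmk was spread more widely, with 37.0%, 40.2% and 39.7% in its top 10%, and 621, 594 and 141 cells had a UMI of it. The measure thus depends on how many cells have a UMI. For Fasl the top 10% held 37.6%, 42.2% and 48.0%. Single cells reached 129, 173 and 103 Gzma UMIs in libraries 1, 2 and 3, whereas the highest Gzmk count in a CD8 cell was 33.

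After thinning, 44.1% ± 6.66 of CD8 cells showed none of Gzma, Gzmb, Gzmc, Gzmk and Prf1, 37.7% ± 3.50 showed 1 of them and 18.2% ± 3.53 showed 2 or more. Gzma and Gzmb were found together in 15 of 761, 32 of 914 and 16 of 226 CD8 cells, or 1.97%, 3.50% and 7.08%. The product of the 2 genes' shares was 0.834%, 1.31% and 2.45%, so the pair was found together above that product in each library. Gzmb and Prf1 also exceeded their product (5.39%, 2.41% and 1.33% against 3.51%, 1.51% and 0.979%). Gzmk and Prf1 did not do so throughout, with 9.86%, 2.85% and 1.77% against 8.79%, 3.05% and 1.70%. In library 3, with 226 cells, too few cells held Prf1 with either gene to set the shares apart from the products. These shares describe cells of 1 library each and were not tested.

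Havcr2 encodes TIM-3, an inhibitory receptor of chronically stimulated T cells. The CD8 cells with a Havcr2 UMI (255, 131 and 16) were set against those without (599, 797 and 227). Tox, Lag3, Pdcd1, Tigit and Entpd1, which mark exhausted cells, summed to 1667 to 3261 CPM in the first and 1192 to 1847 in the second, so the label rests on ranges that overlap. The median Havcr2-positive cell was also deeper, with 4243, 6618 and 3576 UMIs against 3981, 3129 and 2038.

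Perforin was the member with the largest difference in the Havcr2-positive cells. Prf1 was at 340, 232 and 208 CPM in them and at 122, 74.9 and 27.9 in Havcr2-negative CD8 cells. The ranges did not overlap, and the log2 fold change was 1.63 ± 0.17 (edgeR, adjusted p = 1.02e-09). In cells thinned to equal depth, Prf1 was found in 23.2% ± 6.72 of Havcr2-positive and 7.98% ± 5.11 of Havcr2-negative cells. The call stayed in the fit on thinned cells, which were gated again on the thinned UMIs and so were not the same groups of cells. Without the library as a term the Prf1 call was lost (adjusted p = 0.168). Library 3 rested on 17 Prf1 UMIs in 16 cells, of which 1 cell held 9.

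In all, 2 of the 7 members tested were higher (Prf1 and Nkg7) and 1 was lower (Gzmk), where 6.60% of 8188 genes were called. Nkg7 was at 3448, 2961 and 3144 CPM against 2407, 2581 and 2250, without overlap, but its log2 fold change was only 0.30 ± 0.09 (adjusted p = 0.0412). Gzmk was at 687, 431 and 416 CPM against 749, 554 and 705 (log2 fold change -0.43 ± 0.13, adjusted p = 0.0389). Both calls were lost when any 1 library was left out and with DESeq2, and Gzmk had a log2 fold change of 0.36 in thinned cells gated again.

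Gzmb was at 413, 392 and 722 CPM in Havcr2-positive and 262, 322 and 683 in Havcr2-negative CD8 cells, and its log2 fold change of 0.29 ± 0.14 did not pass (adjusted p = 0.25). Gzma, at -0.28 ± 0.14 with 64.3% to 71.2% of its Havcr2-positive UMIs in 1 cell of each library, Fasl, at -0.31 ± 0.16, and Fas, at 0.47 ± 0.19, did not pass either. Gzma was at 129, 222 and 514 CPM, Fasl at 259, 135 and 147 and Fas at 128, 75.1 and 73.4 in Havcr2-positive cells, and Havcr2-negative cells had 257, 184 and 207 CPM of Fasl and 75.3, 64.2 and 48.4 of Fas. Of 8 killer receptors and effectors tested, 6 were higher and 0 lower, led by the chemokine genes Ccl3 at 2.17 ± 0.14 and Ccl4 at 1.43 ± 0.12. Among regulators, Tcf7, a factor of memory and stem-like T cells, was lower at -3.23 ± 0.26, and Hopx at -1.13 ± 0.18. Among 14 granule genes 3 were higher and 1 lower, with Rab27a, which docks granules, at 0.85 ± 0.20 and Ctsw at -1.21 ± 0.14. Of 13 death receptor genes 1 was higher and 0 were lower. The summed myeloid markers were at 12.2 to 163 CPM in Havcr2-positive and 29.8 to 179 in Havcr2-negative cells, ranges that overlap almost wholly.

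The Havcr2-negative CD8 cells were split by Gzmk itself, into 413, 485 and 129 cells with a Gzmk UMI and 186, 312 and 98 without. Gzmk chose the cells, so its levels of 981, 843 and 1163 CPM in the first and 0 in the second are only a description. Of the 6 other members tested, 4 were higher in Gzmk-positive cells and 0 lower, where 5.44% of 7111 genes were called. The Gzmk-positive cells had medians of 4322, 3306 and 2167 UMIs against 3010, 2720 and 1816.

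Granzyme A was the member that differed most. Gzma was at 140, 408 and 881 CPM in Gzmk-positive cells and 121, 15.1 and 156 in cells with neither gene, a log2 fold change of 2.27 ± 0.27 (edgeR, adjusted p = 2.20e-08). In library 1 the levels were close, and without library 2 the log2 fold change was 1.24 and not called (adjusted p = 0.0819), nor was it called with DESeq2. Of the 79 Gzma UMIs in library 1 cells with neither gene, 52 were in 1 cell.

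Gzmb was at 282, 372 and 866 CPM against 200, 226 and 402 (log2 fold change 0.78 ± 0.11, adjusted p = 1.18e-06), higher in each library although the ranges overlapped. In cells thinned to equal depth and gated again on the thinned UMIs, the Gzmb difference was 0.48 and was not called (adjusted p = 0.0751). Cells whose Gzmk UMIs were thinned away counted there as Gzmk-negative, so that fit does not compare the same cells. Nkg7 was at 2586, 2833 and 2637 CPM against 1827, 2099 and 1654 and did not overlap (0.55 ± 0.08, adjusted p = 1.34e-06). Fasl was at 283, 205 and 230 CPM against 174, 145 and 170, also without overlap (0.60 ± 0.13, adjusted p = 0.00097), but the call was lost without library 1 or without library 2 and with DESeq2. Prf1 was at 128, 80.5 and 27.6 CPM against 101, 64.3 and 28.4, a log2 fold change of 0.35 ± 0.16 (adjusted p = 0.24). Fas, at 0.13 ± 0.18, was not called.

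Of the lists, 4 of 8 killer receptors and effectors were higher in Gzmk-positive cells and 0 lower, with Ccl3 at 1.08 ± 0.15 and Ccl5 at 0.75 ± 0.08. Among 12 regulators 3 were higher and 1 lower, with Hopx at 1.20 ± 0.16 and Eomes at 1.07 ± 0.17. Of 14 granule genes only Serpinb6b, a serpin that inhibits granzyme A, was called (0.83 ± 0.22), and of 12 death receptor genes none was. Nkg7 was called higher in both the Havcr2 and the Gzmk comparison, but the call was kept in only 4 of 14 alternatives in the first. In the second it was kept in 13 of 14. Whether the fold changes of a gene differed between these comparisons, which share cells, was not tested.

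**Figure D2:**
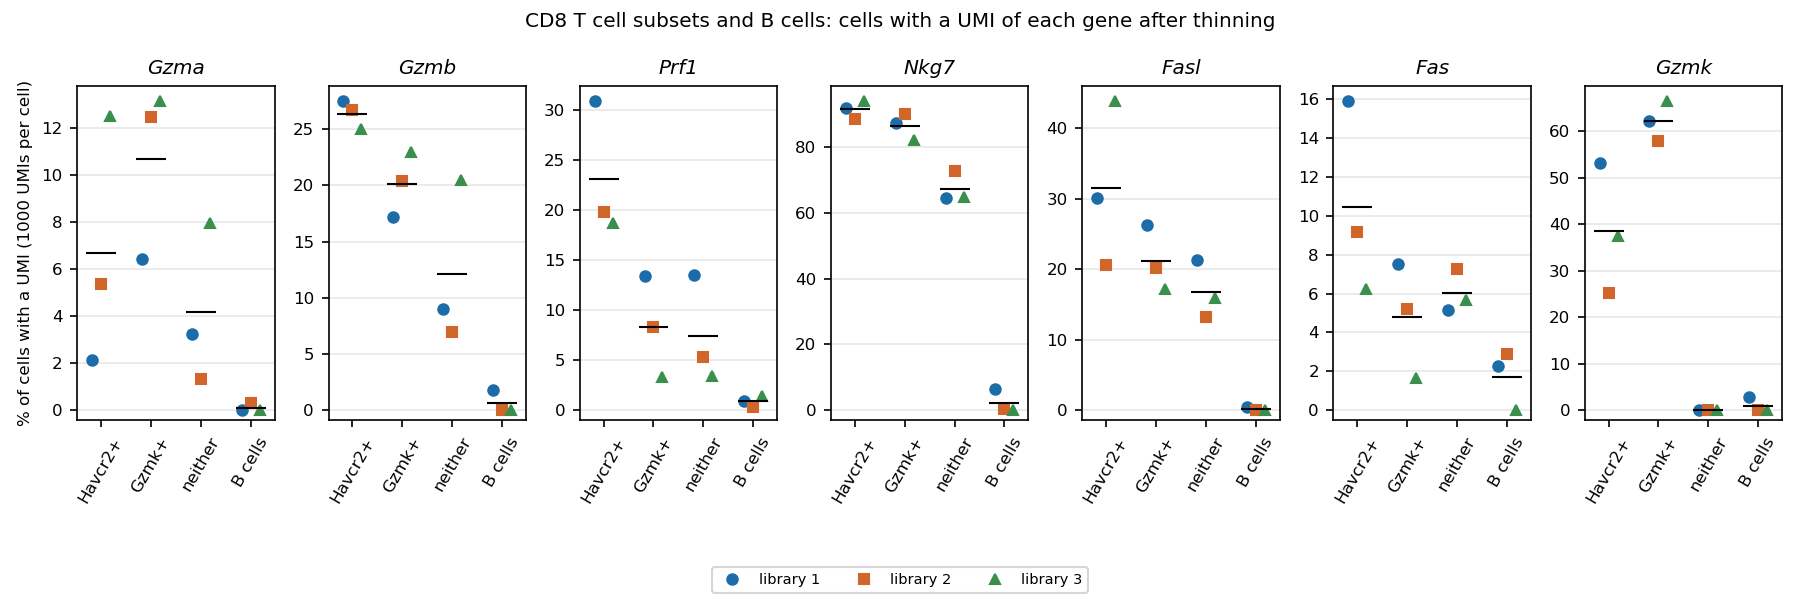
Share of cells with at least 1 UMI of each gene after thinning to 1000 UMIs, in the 3 CD8 subsets and in B cells, with 1 point per library and a line at the mean. Prf1 is at 18.8% to 30.9% in Havcr2-positive cells and at most 13.6% in the other CD8 subsets, and Gzmk is at 0 in the cells chosen for having none.

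NK cells were the richest class for granzyme A. Gzma was at 3486, 4450 and 4485 CPM in NK cells of libraries 1, 2 and 3, where CD8 cells had 133 to 585, a log2 fold change of 3.65 ± 0.55 (edgeR, adjusted p = 8.45e-05). After thinning, 62.9% ± 6.15 of NK cells and 7.77% ± 3.30 of CD8 cells had a Gzma UMI. The NK sum of library 3 came from 13 cells.

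Against CD8 cells, 3 members were higher in NK cells (Gzma, Gzmc and Prf1) and 2 were lower (Gzmk and Fas), where 11.0% of 8501 genes were called. Prf1 was at 492, 366 and 209 CPM in NK cells, above the 201, 116 and 51.7 of CD8 cells in each library. All NK values were above all CD8 values, but the NK value of library 3 came from 8 UMIs in 13 cells. Its counting interval, 90.1 to 411 CPM, held the 201 CPM of CD8 cells in library 1. The gap between the ranges is therefore not firm. The log2 fold change was 1.5 ± 0.25 (adjusted p = 0.00027), although the call was lost without the library as a term (adjusted p = 0.137). Gzmk went the other way, at 57.4, 49.4 and 78.2 CPM against 522 to 727 (-3.68 ± 0.45, adjusted p = 5.52e-06). The NK Gzmk levels came from 14, 15 and 3 UMIs.

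Gzmb was at 1271, 1014 and 495 CPM in NK cells. Libraries 1 and 2 were above CD8 cells and library 3 was below, and the log2 fold change of 1.08 ± 0.63 was not called (adjusted p = 0.34). Nkg7, at 2366, 2648 and 3077 CPM (-0.09 ± 0.16), and Fasl, at 283, 240 and 209 (0.24 ± 0.18), overlapped the CD8 range and were not called. Fas had 6, 2 and 0 UMIs in NK cells, a log2 fold change of -2.44 ± 0.55 (adjusted p = 0.0045), and the call was lost without library 2 (adjusted p = 0.0552).

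The Gzmc call in NK cells (5.31 ± 0.91, adjusted p = 0.00035) came down to 1 cell. NK cells held 70, 3 and 0 Gzmc UMIs, and 65 of the 70 in library 1 were in 1 cell, without which the level there fell from 287 to 20.5 CPM. The call was lost without library 1 (log2 fold change 1.75, adjusted p = 0.46) and, in an alternative added after the data were seen, when the top cell of each sum was taken off (2.31, adjusted p = 0.25).

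NK cells also held more RNA of serpins that inhibit granzymes. Serpinb9 had a log2 fold change of 3.74 ± 0.23 and Serpinb6b of 3.25 ± 0.22, among 4 higher and 2 lower of 14 granule genes. Of 10 killer receptors and effectors 4 were higher and 4 lower, with the inhibitory receptor gene Klrg1 at 3.10 ± 0.38 and Ccl3 at -2.88 ± 0.41. Of 12 regulators 2 were higher and 4 lower. Irf4, a factor induced by antigen receptor signals, had 0 UMIs in the NK cells of each library and 146, 169 and 8 in CD8 cells, and Tox and Prdm1 both had a log2 fold change of -2.24. Of 13 death receptor genes 1 was higher and 2 lower, with Tnf, which had 0, 2 and 0 UMIs in NK cells, at -3.19 ± 0.96.

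Ly49-positive T cells were set against the same CD8 sums, so the NK, gamma delta and Ly49 comparisons share those libraries and cells. Prf1 was at 463, 323 and 109 CPM in them, above the CD8 cells of the same library each time although the ranges overlapped (log2 fold change 1.33 ± 0.21, edgeR, adjusted p = 0.00014). Without the library as a term the call was lost (adjusted p = 0.353). Gzmk was at 233, 93.2 and 33.9 CPM, below CD8 cells throughout (-2.40 ± 0.29, adjusted p = 3.65e-06). Gzmc was at 26.4, 120 and 53.3 CPM from 52, 231 and 22 UMIs, where CD8 cells had 3.95, 2.87 and 0 (4.51 ± 0.71, adjusted p = 0.00014), and this call stayed in every alternative fitted. In library 3, 14 of the 22 UMIs were in 1 cell. Of 8 members, 2 were thus higher and 1 lower against CD8 cells, where 11.0% of 8501 genes were called.

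Gzma in Ly49-positive T cells was at 633, 2258 and 274 CPM, and library 3 lay below its own CD8 cells. The log2 fold change of 1.64 ± 0.53 just missed the threshold (adjusted p = 0.0533). A single cell of library 2 held 913 Gzma UMIs, 20.9% of that sum. Gzmb was at 946, 1822 and 313 CPM, with library 3 again below its CD8 cells (1.12 ± 0.59, adjusted p = 0.29). After thinning, Gzmb was found in 22.9% ± 6.78 of Ly49-positive T cells and 19.2% ± 2.68 of CD8 cells. Without library 3, 5 members were called, among them Gzma at 2.78 (adjusted p = 0.00069). Over the whole table, 524 to 790 genes were called in the 3 fits with 1 library left out. Nkg7, at 2762, 2794 and 2201 CPM, Fasl, at 219, 129 and 124 (-0.38 ± 0.15, adjusted p = 0.11), and Fas, at 48.3, 43.5 and 50.9 (-0.66 ± 0.23, adjusted p = 0.069), were not called.

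Of 14 granule genes, 5 were higher and 2 lower in Ly49-positive T cells, with Serpinb9 at 1.79 ± 0.22 and Serpinb6b at 1.58 ± 0.20. Among killer receptors and effectors 5 of 10 were higher and 4 lower, with Fcgr3, which encodes a receptor for antibody, at 4.14 ± 0.47 and Klrg1 at 2.83 ± 0.25. Among 12 regulators 2 were higher and 4 lower, with the T-bet gene Tbx21 at 1.33 ± 0.16 and Tox at -0.95 ± 0.16. Of 13 death receptor genes 2 were higher and 1 lower, with Bid, a target of granzyme B, at 1.17 ± 0.28.

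Ly49-positive T cells were 7.56%, 3.60% and 6.20% of kept cells and held 36.1%, 33.6% and 40.5% of all Prf1 UMIs. They held 39.6%, 52.6% and 12.8% of Gzma UMIs, and 32.6%, 36.5% and 12% of Gzmb UMIs. Of the Gzmc UMIs, they held 28.7%, 71.5% and 78.6%. NK cells, 0.848% to 1.20% of kept cells, held 27.0%, 16.3% and 19.5% of Gzma UMIs. The median Ly49-positive T cell had 6223, 4932 and 3597 UMIs, above the CD8 medians of the same libraries.

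**Figure D3:**
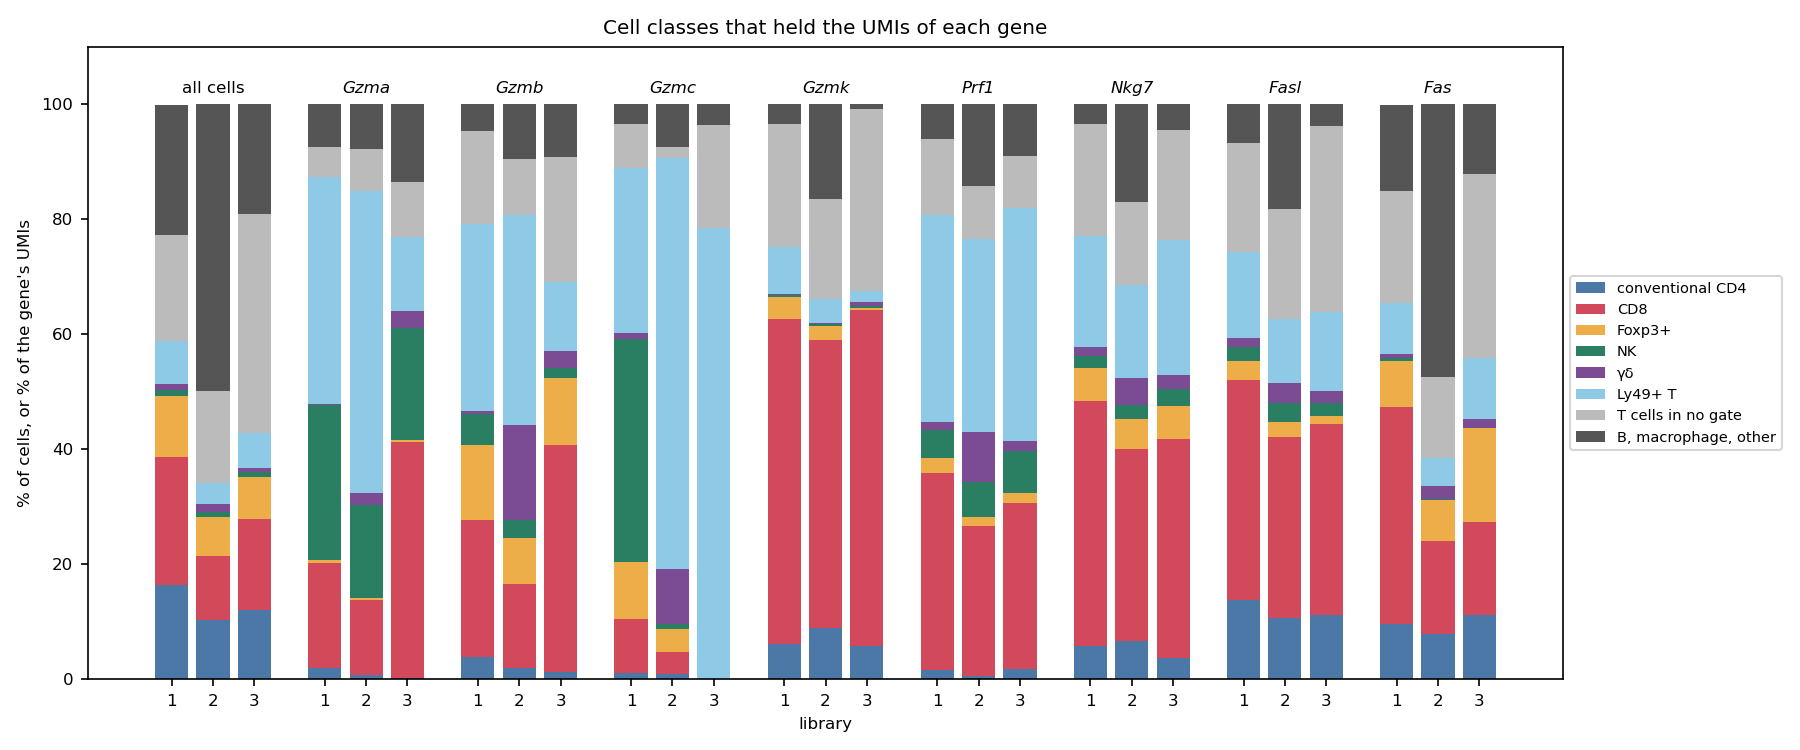
Share of all kept cells (first group of bars) and of each gene's UMIs held by each class, as stacked percent, for libraries 1, 2 and 3. Ly49-positive T cells are under 8% of cells in each library but hold at least 33.6% of Prf1 UMIs, and CD8 cells hold the largest part of Gzmk UMIs.

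Gamma delta T cells could be compared in libraries 1 and 2 only. Gzmk was at 44.3 and 16.8 CPM, from 9 and 12 UMIs, far below the 727 and 522 of CD8 cells (log2 fold change -4.76 ± 0.50, edgeR, adjusted p = 1.41e-06), and was the only 1 of 8 members called, where 4.92% of 8501 genes were. Prf1, at 172 and 227 CPM, was not called (0.57 ± 0.27, adjusted p = 0.30). Gzmb was at 118 CPM in library 1 and 2226 in library 2, where 1 cell held 653 of 1591 UMIs, and the 2 libraries lay on either side of their CD8 cells. The log2 fold change was 1.86 without library 1 and -2.35 without library 2, both called, but each of these fits had gamma delta cells of 1 library only, assumed to vary like the other classes. With both libraries and thinned cells, gated again on the thinned UMIs, it was -3.77. Gzma, at 14.8 and 232 CPM, was below CD8 cells in both (-1.28 ± 0.71, adjusted p = 0.40). Fasl, at 231 and 113 CPM, Nkg7, at 2066 and 2245, Fas, at 39.4 and 56.0, and Gzmc, at 9.84 and 43.4, were not called.

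Of 14 granule genes 2 were higher and 0 lower in gamma delta cells (Serpinb6b at 1.02 ± 0.29 and Ctsw at 0.92 ± 0.14). Among 10 killer receptors and effectors 2 were higher and 3 lower, with the chemokine gene Xcl1 at 1.78 ± 0.49 and Ccl3 at -1.31 ± 0.31. Among 12 regulators 1 was higher and 3 lower, with Eomes at -1.86 ± 0.42 and Tox at -1.78 ± 0.26. Of 13 death receptor genes 1 was higher and 1 lower, with Tnf higher at 1.43 ± 0.34.

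Foxp3-positive T cells, which hold the regulatory T cells, had more granzyme B RNA than conventional CD4 cells and less Fas ligand and granzyme K RNA. Gzmb was at 368, 271 and 471 CPM in them and at 90.5, 56.7 and 36.4 in conventional CD4 cells. The ranges were far apart, with a log2 fold change of 2.40 ± 0.66 (edgeR, adjusted p = 0.0304), but the call was lost without library 3 and with DESeq2. After thinning, 18.2% ± 5.94 of Foxp3-positive and 4.24% ± 1.23 of conventional CD4 cells had a Gzmb UMI, and 0.612% ± 1.06 of B cells. Il2ra, Ikzf2 and Ctla4 summed to 2148 to 2728 CPM in Foxp3-positive and 1128 to 1748 in conventional CD4 cells.

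Perforin RNA was scarce in Foxp3-positive cells. After thinning, Gzmb was found without Prf1 in 58 of 385, 75 of 535 and 24 of 96 cells, and with Prf1 in 1, 1 and 0. The pair made up 0.26%, 0.187% and 0% of cells where the product of both shares was 0.438%, 0.266% and 0.521%, too few cells to set the 2 apart. Prf1 stood at 33.6, 10.6 and 7.53 CPM, where B cells had 8.96, 5.42 and 6.17. The counting intervals of the 2 classes were apart in library 1 and overlapped in libraries 2 and 3. Overlap does not show that the levels were equal, and the difference from B cells was not tested. The log2 fold change of Prf1 against conventional CD4 cells was 1.16 ± 0.39 (adjusted p = 0.0888). Gzma, at 7.91, 7.78 and 7.53 CPM (-1.48 ± 0.91), and Gzmc, at 8.90, 4.60 and 0 CPM, were not called. This comparison shares its CD4 sums with that of CD8 cells.

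Fas ligand was lower in Foxp3-positive cells. Fasl was at 47.0, 21.2 and 18.8 CPM in them and 165, 74.0 and 107 in conventional CD4 cells, without overlap (log2 fold change -1.90 ± 0.19, adjusted p = 9.04e-07), and the call stayed in every alternative fitted. Gzmk was also lower, at 105, 36.8 and 7.53 CPM against 141, 121 and 107 (-1.22 ± 0.32, adjusted p = 0.0247). However, the library 3 level in Foxp3-positive cells came from 2 UMIs, and the call was lost without library 2 and with DESeq2. Thus 1 of 8 members was higher and 2 were lower, where 6.39% of 8501 genes were called. Nkg7 was at 795, 612 and 836 CPM and was not called (0.31 ± 0.16). Fas was at 42.5, 42.8 and 121 CPM against 42.6, 41.5 and 57.2 and was not called (0.16 ± 0.25).

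Of the lists, 4 of 10 killer receptors and effectors were lower in Foxp3-positive cells and 1 was higher, with Ifng, the interferon gamma gene, at -2.45 ± 0.27 and Ccl3 at -2.21 ± 0.30. Among 12 regulators, Hopx was higher at 1.27 ± 0.17 and 3 were lower, with Tcf7 at -2.30 ± 0.18. Cst7, which encodes cystatin F, an inhibitor of the cathepsins that activate granzymes, was the only 1 of 14 granule genes called (0.62 ± 0.14). Of 13 death receptor genes 2 were higher and 1 lower, with Tnf at -1.16 ± 0.28 and Birc3 at 0.90 ± 0.17.

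The study centred on IL-21, so conventional CD4 cells with an Il21 UMI (88 and 132 cells in libraries 1 and 2) were compared with the rest. None of 6 members tested was called by edgeR, where 4.28% of 7014 genes were. At an unadjusted p under 0.05 there were 2, Gzma and Nkg7, and DESeq2, which gave 2 of the 6 no adjusted p, called 0. Gzma had 52 UMIs in the Il21-positive cells of library 1 and 1 in those of library 2 (log2 fold change 1.64 ± 0.56, adjusted p = 0.096). Those of library 1 lay in 4 cells, of which 1 held 28. Gzmk was at 113 and 112 CPM against 148 and 123, Fasl at 148 and 60.9 against 169 and 77.2, and Nkg7 at 616 and 537 against 672 and 733. Gzmb was at 118 and 7.81 CPM against 84.2 and 68.8, on either side of 0 change in the 2 libraries, and Fas at 43.6 and 48.4 against 42.4 and 39.8. Of the 54 Gzmb UMIs in Il21-positive cells of library 1, 36 were in 1 cell. Other genes did differ: Ifng was higher at 1.65 ± 0.14 and Ccl4 at 1.49 ± 0.10, among 3 higher and 1 lower of 8 killer receptors and effectors. Of 14 granule genes 2 were higher, Srgn, the granule proteoglycan gene, at 0.56 ± 0.06 and Stx11 at 0.63 ± 0.18. Of 11 regulators 3 were higher and 1 lower, with Bhlhe40 at 0.86 ± 0.09 and Tcf7 at -0.87 ± 0.18, and of 12 death receptor genes 2 were higher, Tnfsf10 at 0.95 ± 0.28 and Tnf at 0.75 ± 0.23.

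**Figure D4:**
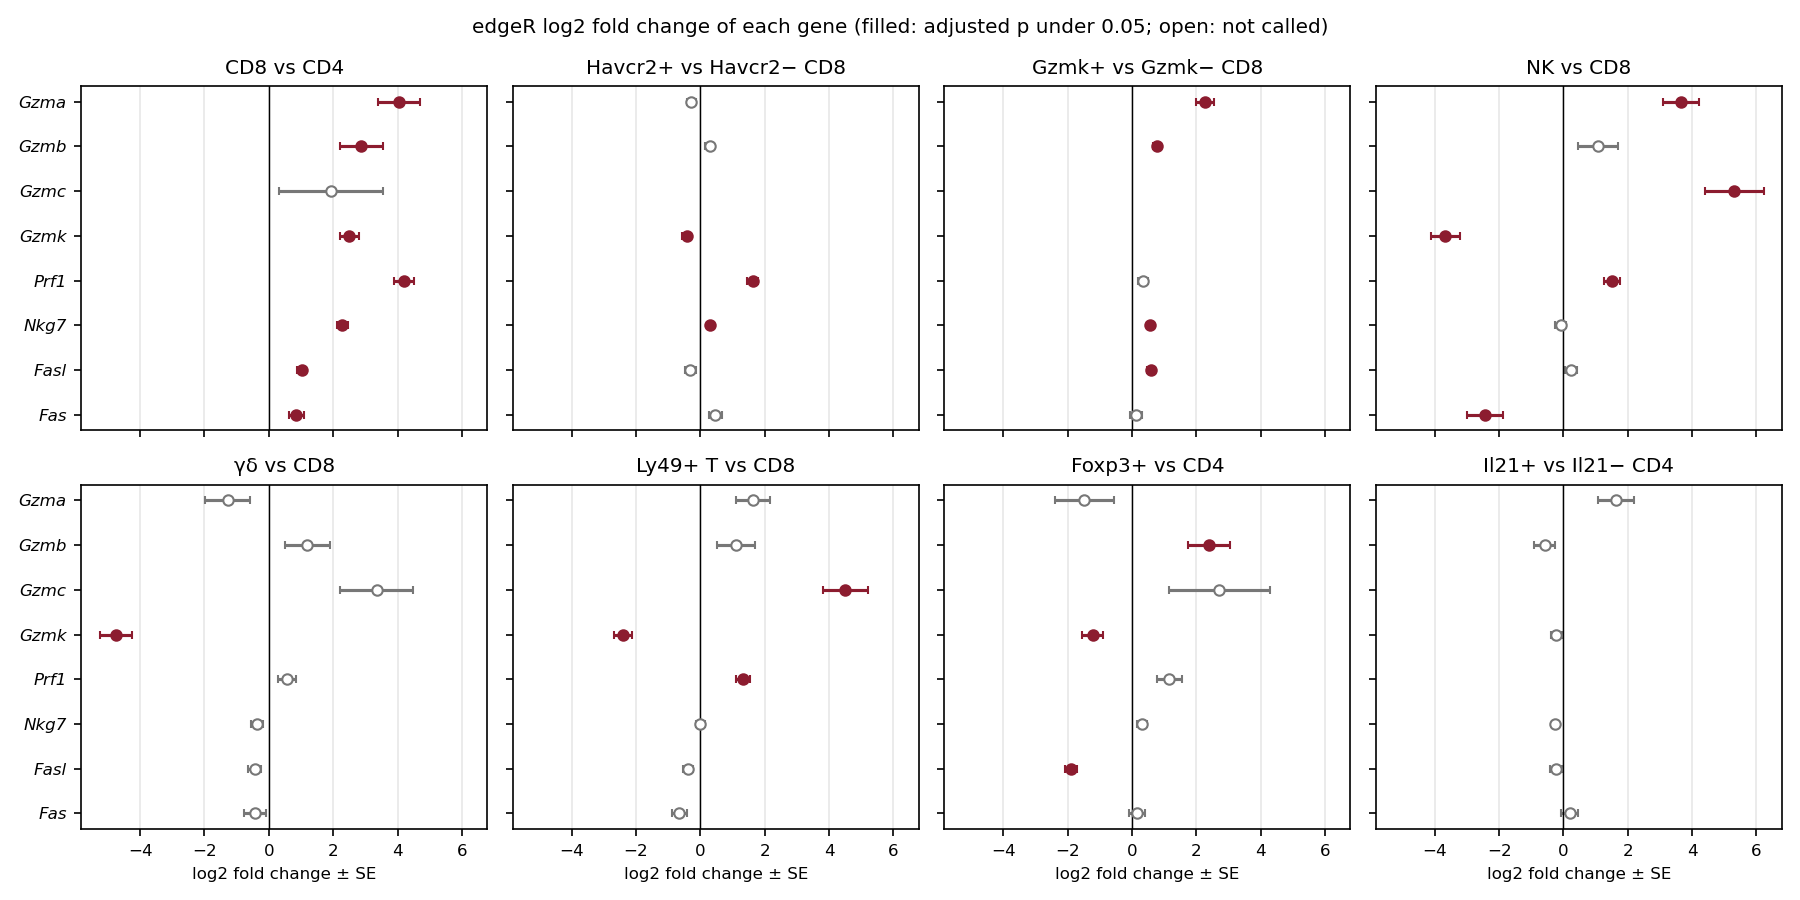
Log2 fold change ± SE of each member in 8 comparisons, filled where the adjusted p is under 0.05 and open where it is not, with members not tested left out. The SE was worked back from the F of each test. Gzmk lies left of 0 in the NK, gamma delta, Ly49-positive and Foxp3-positive panels, and Prf1 lies right of 0 with a filled point in the CD8, Havcr2, NK and Ly49-positive panels.

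Ordered by mean level over libraries, Gzma went from NK cells (4140 ± 567 CPM, SD) to Ly49-positive T cells (1055 ± 1057), whose spread was as large as their mean, and to Gzmk-positive CD8 cells (476 ± 375), which did not differ from them beyond that spread. Gzmb was at 1172 ± 1491 in gamma delta, 1027 ± 758 in Ly49-positive and 927 ± 395 in NK cells, none apart from its neighbour. Prf1 ran from NK cells (355 ± 142) through Ly49-positive T cells (298 ± 178) and Havcr2-positive CD8 cells (260 ± 70.7), which overlapped, down to conventional CD4 cells (8.14 ± 6.99). Fasl was at 244 ± 37.3 in NK cells and 239 ± 39.8 in Gzmk-positive CD8 cells, which did not differ beyond their spread, and was lowest of the T and NK classes in Foxp3-positive cells (29.0 ± 15.6). Fas ran from 92.0 ± 30.9 in Havcr2-positive CD8 cells to 10.4 ± 12.7 in NK cells, and B cells had 30.7 ± 12.2.

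Likeness of pattern was measured as Pearson's r of log2(CPM + 1), centred within library, over 23 sums of library and class, which share libraries and depth. Prf1 was most like Chn2 (0.92), Klrd1 and Gm19585, and Nkg7 most like Eomes (0.95), Klrc2 and Klrd1. Gzma was most like Serpinb9 (0.87), Arsb and Eomes, Gzmb like Sla2 (0.79) and Padi2, and Fasl like Pde3b (0.92), Eef1a1 and Rps15a. Gzmk itself divided 2 of the 8 classes, so its likeness was fixed in part by the gates and is not given. Gzmc was most like Htra3 (0.82) and Fas most like Zfp580 (0.97), both on sums of few UMIs. Among members, Prf1 and Nkg7 were closest at 0.89 and Gzma and Prf1 followed at 0.81.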

How the data were processed

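Single-cell RNA-seq (10x Genomics) was measured in 3 libraries of sorted CD45+ nerve cells. Per the labels and the study's methods, the authors made the deposited matrices of UMI counts per gene and cell with Cell Ranger 5.0.1 and 6.1.2 on mm10. Library 1 came without a gene list used here and was given the row order of the other libraries, which was checked by the rank correlation of gene totals (0.95 with library 2 and 0.93 with library 3, against 0.36 and 0.32 after a shift of 1 row). Cells with at least 300 UMIs, at most 5000 genes and at most 20% mitochondrial UMIs were kept, as in the study. No doublets were removed and no doublet caller was run. A gate on lineage genes and leaving out the deepest 5% of cells stood in for one. The authors' clusters were not used, and their receptor sequences were not analysed here.

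Classes were gated on marker UMIs and summed per library, with sums of at least 10 cells, and compared with edgeR 4.0.16 (TMM scaling, quasi-likelihood test) in R 4.3.3, with the Benjamini-Hochberg adjustment over all genes tested and a threshold of 0.05. The library was a term because all classes of 1 library came from the same mice. The 6 main classes were fitted together and the subsets of CD8 and CD4 cells each on their own. The CD8 against CD4 fit and the Havcr2 fit were also run on simulated counts. These had 1 common spread and no library effect beyond depth, unlike the data, so nothing is drawn from them here. Levels per 1000000 UMIs (CPM) used the summed UMIs without TMM. Shares of cells were taken after thinning to 1000 UMIs and processed in Python 3.11.15. These shares kept the classes gated on all UMIs, whereas the fits on thinned cells gated the cells again on the thinned UMIs. DESeq2 1.42.0 and 13 other alternatives were run, of which leaving out shared barcodes and the top cell of each member were added after the data were seen. All 8 members were named in every comparison, and from each list the 2 called genes with the largest change in the same direction in every library. Some results that fall under these rules are not reported here. The members and lists were chosen with earlier results of these data known. Shares and intervals cover counting error only.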

Additional observations from a re-analysis of the deposited data

How the results depend on the processing

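Of 26 calls of members, 10 stayed the same in every alternative fitted: Gzma, Gzmk, Prf1 and Nkg7 in CD8 against CD4 cells, Gzma and Gzmk in NK cells, Gzmk in gamma delta cells, Gzmc and Gzmk in Ly49-positive T cells, and Fasl in Foxp3-positive cells. Over 801 fitted alternatives of single members, 688 kept direction and side of the threshold, 48 lost the call, 46 gained one and 19 changed direction. The causes were not tested. The thinned and left-out fits held fewer cells and genes, and the thinned fits also gated the cells again on the thinned UMIs. Il21-positive cells could not be fitted without replicate 1 or without replicate 2.

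Without the replicate block, that is without the library term, 4 of 7 members stayed called in CD8 against CD4 cells, 0 of 3 in the Havcr2 comparison, 0 of 4 in the Gzmk comparison and 1 of 3 in Foxp3-positive cells, and the genes called over the whole table fell to 204, 5, 2 and 34. Prf1 lost its call this way in the Havcr2, NK and Ly49 comparisons (adjusted p = 0.168, 0.137 and 0.353), the single loss of these 3 calls in 14 alternatives each. The genes called without the block were 400 for NK, 152 for gamma delta, 223 for Ly49-positive and 1 for Il21-positive cells. DESeq2 called 1 member in the Havcr2 comparison (130 genes), 2 in the Gzmk comparison (92 genes) and 1 in Foxp3-positive cells, and 41 genes in the Il21 comparison. With no filter on low counts, 5 members were called in gamma delta (709 genes), 7 in Ly49-positive, 6 in Foxp3-positive and 1 in Il21-positive cells. In thinned cells 1 member was called in the Havcr2 comparison and 3 in gamma delta cells, and the genes called were 462, 21, 43, 226, 58, 291, 163 and 45 in the CD8, Havcr2, Gzmk, NK, gamma delta, Ly49, Foxp3 and Il21 comparisons. The strict lineage gate called 6 members in Ly49-positive and 1 in Il21-positive cells, and leaving out the deepest cells 5 and 1. Other class gates called 2 members in gamma delta cells, with 250 genes in the Gzmk, 612 in the Ly49 and 167 in the Il21 comparison. Without dividing cells 130 genes were called in the Gzmk and 180 in the Il21 comparison. Without the top cell of each member, which takes more from small sums, 2 were called in Il21-positive cells, where sums of at least 5 cells gave 112 genes and leaving out shared barcodes 97. Where this paragraph counts members alone, the genes called over the whole table are not given beside them. Those counts are therefore not read as a result about the members.

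Leaving out 1 library called 1 member in the Havcr2 comparison each time (180 to 467 genes). The members called ranged from 2 to 4 in the Gzmk comparison (99 to 534 genes), from 1 to 4 in gamma delta cells (231 to 443), from 3 to 5 in Ly49-positive cells (524 to 790) and reached 1 in the Il21 comparison. The genes called ranged from 582 to 1041 in CD8, 508 to 835 in NK and 246 to 475 in Foxp3-positive cells.

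Directions turned as follows, as log2 fold changes. In thinned cells the Havcr2 comparison gave Gzmk 0.36 and Fasl 0.12, NK cells gave Fasl -0.15, gamma delta cells gave Gzma 0.16, Gzmb -3.77 and Prf1 -1.54, Foxp3-positive cells gave Nkg7 -0.27, and Il21-positive cells gave Gzmk 0.65, Nkg7 0.28 and Fasl 0.65. Gzma was 0.17 in the Havcr2 comparison without the deepest cells and 0.42 in Foxp3-positive cells under the strict gate. Fas in the Gzmk comparison was -0.16 with other gates and ranged from -0.15 (without library 1) to 0.41 with 1 library left out, and from -0.02 (without library 3) to 0.29 in Foxp3-positive cells. Leaving out 1 library, Fasl in NK cells ranged from -0.01 (without library 2) to 0.30, and in gamma delta cells Gzmb from -2.35 to 1.86 and Prf1 from -0.23 to 0.94, the lowest without library 2 and the highest without library 1. Gzmk in Il21-positive cells was 0.07 without dividing cells.

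Shares of cells moved with depth. With thinning to 500 UMIs and with none, they were 55.2% and 71.4% for Gzma in NK cells, 23.8% and 48.7% for Gzmb in NK cells, 12.4% and 29.7% for Gzmb in CD8 cells, 26.6% and 64.9% for Gzmk in CD8 cells, 12.4% and 58.6% for Prf1 in NK cells, 14.7% and 48.6% for Prf1 in Havcr2-positive CD8 cells, 64.2% and 91.4% for Nkg7 in CD8 cells, 12.9% and 45.5% for Fasl in CD8 cells, 1.52% and 9.38% for Fasl in Foxp3-positive cells, and 3.39% and 21.3% for Fas in CD8 cells. Without thinning Gzmb was found in 27.5% of Foxp3-positive cells and Prf1 in 18.8% of Havcr2-negative CD8 cells.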
